A study of Mus musculus with 23 samples.

Results

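The 6 genes described here, *Gm2663*, *1810009J06Rik*, *Prss3*, *Gm5771*, *Gm10334* and *Prss1*, are the trypsinogens of the mouse pancreas that had low counts in the uninjured organ and higher counts 7 days after caerulein injury. They are 6 of the 12 trypsinogen symbols, and of 18512 gene symbols in all, in the RNA-seq files. The genes were chosen by their measured counts at baseline and at day 7. The difference between these time points is therefore given as a description without a test, and tests are kept for day 14 and for sex. The mice were C57BL/6, 6 to 8 weeks old, and the tissue was the head of the pancreas, from which total RNA was depleted of ribosomal RNA. Injured mice had received caerulein, an agonist of the cholecystokinin receptor, at 50 µg/kg in 8 hourly injections a day on 2 days. There were 8 non-injured baseline mice (4 female, 4 male), 8 mice at day 7 post-injury (4 female, 4 male) and 7 at day 14 (3 female, 4 male), and day 0 lay 1 day after the last injection. No group of injected controls without caerulein was analysed here, so caerulein and the injections themselves cannot be told apart. Each mouse is 1 library, named below by the mouse number of its label.

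Trypsinogen is the inactive precursor of trypsin. Acinar cells make it, store it in zymogen granules with the other digestive enzymes, and secrete it into the duodenum, where enteropeptidase cuts off a short activation peptide that ends in a run of aspartates and a lysine. The trypsin released in this way activates the remaining zymogens. Trypsinogen that is activated inside the acinar cell is a known early event of pancreatitis, and cathepsin B can cut the same site. The mouse genome holds many trypsinogen genes in a cluster near the T cell receptor beta genes.

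All 6 genes lay on chromosome 6 (GENCODE vM21, GRCm38), are annotated as protein coding and have 5 exons. *1810009J06Rik* (chr6:40964754-40968435, plus strand) and *Gm2663* (chr6:40995830-40999479, minus strand) formed a first pair at one end of the cluster. *Prss3* (chr6:41373814-41377678, minus strand) and *Gm5771* (chr6:41392356-41397230, plus strand) stood farther along, followed by *Gm10334* (chr6:41442216-41446145, minus strand) and *Prss1* (chr6:41458932-41463786, plus strand). The coding sequences fell into pairs of near copies. *Gm2663* and *1810009J06Rik* were 99.5% identical over 741 coding bases, *Prss3* and *Gm10334* 99.1% over 738, and *Gm5771* and *Prss1* 97.6%. The last 4 genes were 96.2% to 99.1% identical to one another, but only 69.9% to 71.5% identical to *Gm2663* and *1810009J06Rik*.

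The activation peptide also set *Gm2663* and *1810009J06Rik* apart, and in addition *Gm5771*, which differed here from its near copy *Prss1*. The sequences below run from the start codon to the cleavage site, which was placed before the codons for isoleucine, valine and a pair of glycines that open mature trypsin. They were read from GENCODE vM21 transcripts, and capitals mark the last 5 codons before the site. *Prss2*, one of the abundant trypsinogens, is shown for comparison.
Gm2663: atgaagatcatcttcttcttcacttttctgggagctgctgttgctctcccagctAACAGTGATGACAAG
1810009J06Rik: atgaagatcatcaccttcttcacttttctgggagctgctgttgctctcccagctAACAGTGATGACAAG
Gm5771: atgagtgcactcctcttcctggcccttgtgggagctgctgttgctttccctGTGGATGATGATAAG
Prss3: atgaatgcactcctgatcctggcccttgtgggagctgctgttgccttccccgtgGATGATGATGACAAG
Gm10334: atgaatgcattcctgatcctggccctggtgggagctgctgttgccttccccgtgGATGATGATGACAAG
Prss1: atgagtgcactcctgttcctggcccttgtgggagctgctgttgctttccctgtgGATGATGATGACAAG
Prss2: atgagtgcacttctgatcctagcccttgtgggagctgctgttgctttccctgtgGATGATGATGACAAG
The run of aspartate codons (GAT or GAC) before the final lysine codon held 2 codons in *Gm2663* and *1810009J06Rik* and 3 in *Gm5771*. It held 4 in *Prss3*, *Gm10334*, *Prss1* and *Prss2*, and also 4 in *Try4*, *Try5* and *Try10*. The remaining abundant gene, *2210010C04Rik*, had 5.

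Near identity also limits the counts. The authors counted fragments that mapped uniquely, from paired reads of 75 bases. Of all windows of 75 bases in the *Gm2663* transcript, 76.6% occurred unchanged in *1810009J06Rik*, and 74.8% of those of *1810009J06Rik* occurred in *Gm2663*. *Prss3* shared 53.9% of its windows with *Gm10334*, and *Gm5771* 25.8% with *Prss1*. The share found in no other gene was 23.4% for *Gm2663*, 25.2% for *1810009J06Rik*, 46.1% for *Prss3*, 48.6% for *Gm10334*, 59.5% for *Gm5771* and 62.9% for *Prss1*. Reads with both mates in shared windows can map to more than 1 place, so levels of these genes may be understated. The split of counts within a pair of genes is less certain than their sum. The shares take each read alone. A read can still be placed if its mate covers a differing base, so the loss may be smaller than the shares.

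Counts were scaled with TMM factors and are given as CPM, counts per 1e6 counts of a library after scaling. Total counts per mouse lay between 7059890 and 9567446, and 12195 genes passed the filter of edgeR for the comparisons between time points. The 6 genes all passed it.

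*Gm2663* and *1810009J06Rik* were close to silent at baseline. *Gm2663* had 0 counts in 3 of the 8 baseline mice and 1 to 6 in the others, 13 in all (95% Poisson interval 6.92 to 22.2, counting error only). At day 7 its counts summed to 16219. Its level was 0 CPM at the lowest, 0.164 at the median and 0.74 at the highest of the baseline mice, against 85.9, 216 and 298 CPM at day 7 and 15.5, 17.3 and 31.0 CPM at day 14. The ranges of the 3 groups did not overlap, and the lowest day 7 mouse (mouse 14) still stood above every mouse of day 14. Here and below, the share of all genes whose groups stood apart is not given, so such separation is description only. Relative to total counts, the pooled counts gave a ratio of 1120.1 between day 7 and baseline, with bounds of 655 and 2104 from the interval of the 13 baseline counts. Mouse 5 held 6 of these 13 counts, and without it the ratio was 1788. The ratio of the mean TMM-scaled CPM was 892.

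*1810009J06Rik* followed the same course from a baseline of 0.484, 0.904 and 2.08 CPM (lowest, median and highest). Its day 7 values were 32.1, 93.0 and 154 CPM, and its day 14 values 8.19, 9.75 and 15.8 CPM. Again the groups did not overlap, mouse 14 was the lowest at day 7 and mouse 21 the highest at day 14 for both genes. Baseline counts of *1810009J06Rik* were 3 to 12 in each mouse, too few to order the baseline mice.

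The other 4 genes were measured well above the counting floor in every mouse. *Prss3*, the most abundant of the 6, had 137, 187 and 519 CPM at baseline (lowest, median and highest), 499, 707 and 1092 CPM at day 7 and 243, 272 and 573 CPM at day 14. Its day 7 and baseline ranges met in a single baseline animal, mouse 2, at 519 CPM, while the next baseline mouse was at 272 CPM. *Gm5771* had 36.6, 52.0 and 190 CPM at baseline, 286, 340 and 664 CPM at day 7, and 75.6, 80.7 and 337 CPM at day 14. All day 7 mice stood above all baseline mice, and at day 14 mouse 23 alone reached the day 7 range.

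*Gm10334* had 2.84, 4.38 and 8.40 CPM at baseline, 28.1, 44.4 and 74.1 CPM at day 7 and 10.4, 12.0 and 26.5 CPM at day 14. None of its 3 groups overlapped. *Prss1* had 13.4, 16.7 and 24.8 CPM at baseline, 47.0, 73.1 and 118 CPM at day 7 and 19.9, 21.9 and 56.9 CPM at day 14. Its day 7 mice stood apart from baseline, while 5 of its 7 day 14 mice lay within the baseline range, mouse 22 stood just above it and mouse 23 reached the day 7 range. In the mouse nomenclature *Prss1* names this minor gene, whereas the trypsinogens with the most counts were *Prss2* and *2210010C04Rik*.

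**Figure D1:**
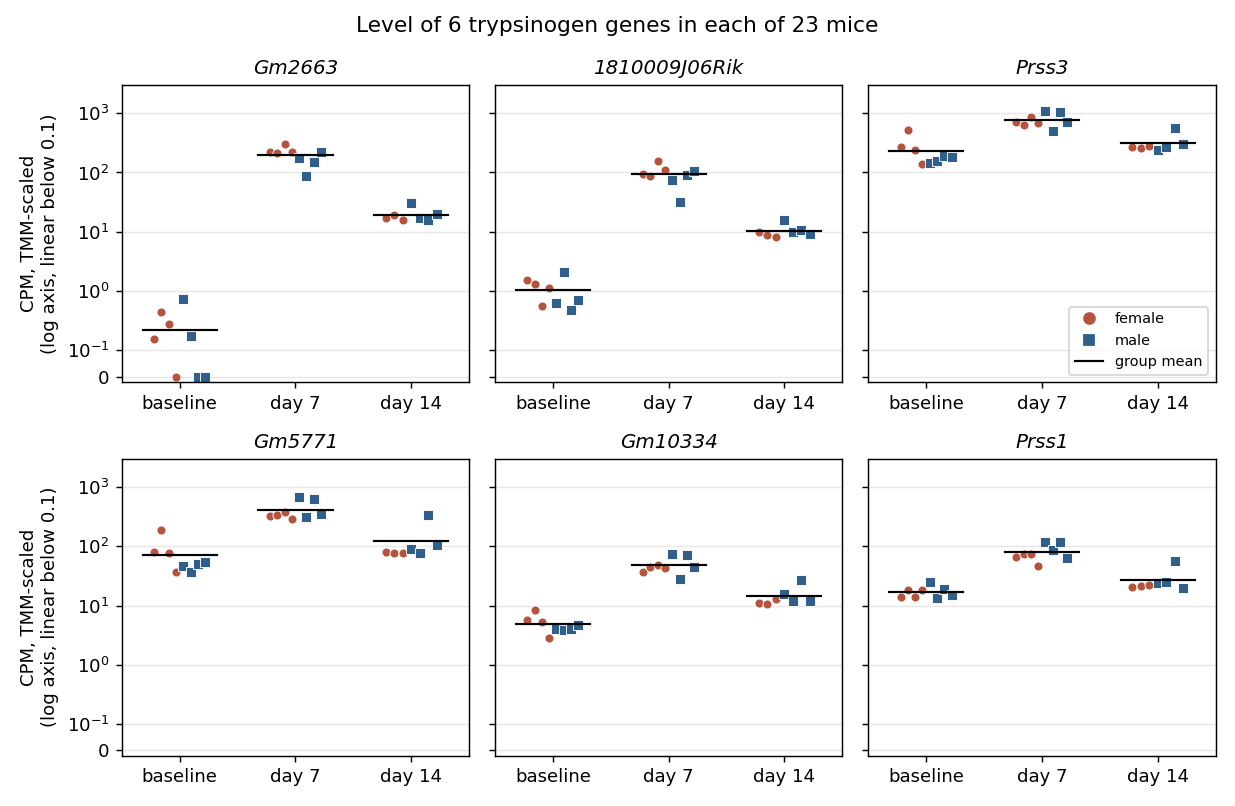
TMM-scaled CPM (log axis, linear below 0.1) of each of the 6 genes in the 23 mice, by group and sex, with lines at the group means. *Gm2663* and *1810009J06Rik* start near 0, with baseline means of 0.223 and 1.05 CPM, and their 3 groups do not overlap, while mouse 23 stands high at day 14 for the other 4 genes.

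Divided by exon length, the order of the genes changed with time. At baseline the means were 280 CPM per kb for *Prss3*, 89.3 for *Gm5771*, 21.2 for *Prss1*, 5.53 for *Gm10334*, 1.19 for *1810009J06Rik* and 0.259 for *Gm2663*. Neighbours overlapped in range for *Prss3* and *Gm5771* and for *1810009J06Rik* and *Gm2663*, and not elsewhere in the order. At day 7 *Gm2663* stood in the 3rd place at 231 ± 71.8 CPM per kb (SD, n = 8), after *Prss3* at 946 ± 251 and *Gm5771* at 513 ± 189. It was followed by *1810009J06Rik* at 106 ± 38.8, *Prss1* at 100.4 ± 31.4 and *Gm10334* at 55.8 ± 18.2, and of all neighbours only *Gm5771* and *Gm2663* did not overlap. At day 14 the means were 382 for *Prss3*, 151 for *Gm5771*, 33.6 for *Prss1*, 22.6 for *Gm2663*, 16.4 for *Gm10334* and 11.7 CPM per kb for *1810009J06Rik*, with *Gm5771* and *Prss1* as the only neighbours without overlap. Overlap of ranges compares different mice, while the genes were measured in the same mice. Counts of *Prss3* exceeded those of *Gm5771* in every mouse, with lowest ratios of 2.73 at baseline, 1.60 at day 7 and 1.70 at day 14. Counts of *Gm2663* exceeded those of *1810009J06Rik* in every day 7 mouse (ratios 1.66 to 2.68), but not in every baseline mouse (0 to 1.2).

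The order of the genes per kb depends on how shared sequence is treated, and the scale below takes each read alone although the reads were paired. Divided instead by the number of 75-base windows found in no other gene, *Gm2663* stood above *Gm5771* at day 7, at 1080.5 ± 337 against 949.9 ± 350.3 CPM per kb of window starts (SD, n = 8), and their ranges of 467 to 1618 and 663 to 1541 overlapped. At day 14 *Gm2663* stood above *Prss1* on this scale, at 106 ± 29.1 against 58.8 ± 28.8 (SD, n = 7), and *Prss3* remained the highest at both times.

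As a description of the contrast that chose them, the fitted log2 fold changes of day 7 against baseline were 9.61 for *Gm2663*, 6.48 for *1810009J06Rik*, 3.32 for *Gm10334*, 2.48 for *Gm5771*, 2.21 for *Prss1* and 1.77 for *Prss3*. Ordered from the largest increase, they took the places 1, 2, 7, 12, 13 and 28 among the 12195 genes, of which 3.82% were called higher at day 7 (adjusted p of at most 0.05 in edgeR and a fold change of at least 1.5). The fitted value of *Gm2663* depends on the prior count, since 3 baseline mice had no count. The genes just outside the choice were *Try10*, at 684 ± 101 CPM at baseline and 570 ± 92.2 at day 7 (SD, n = 8 each), and the pseudogene *Gm5409*, at 5.70 ± 2.20 and 4.12 ± 1.05 CPM.

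The 6 other trypsinogens were left out of the choice by the same values. Their log2 fold changes at day 7 were -0.94 for *Prss2*, -0.74 for *2210010C04Rik* and between -0.53 and -0.26 for *Try4*, *Try5*, *Try10* and *Gm5409*. With total counts in place of TMM factors the median log2 difference of all genes between day 7 and baseline moved up by 0.44, and the mean log2 differences of *Try10* and *Gm5409* became 0.19 and 0.04 while *Prss2* stayed at -0.48 and the remaining 3 below 0. The 6 genes were higher at day 7 under both scalings.

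**Figure D2:**
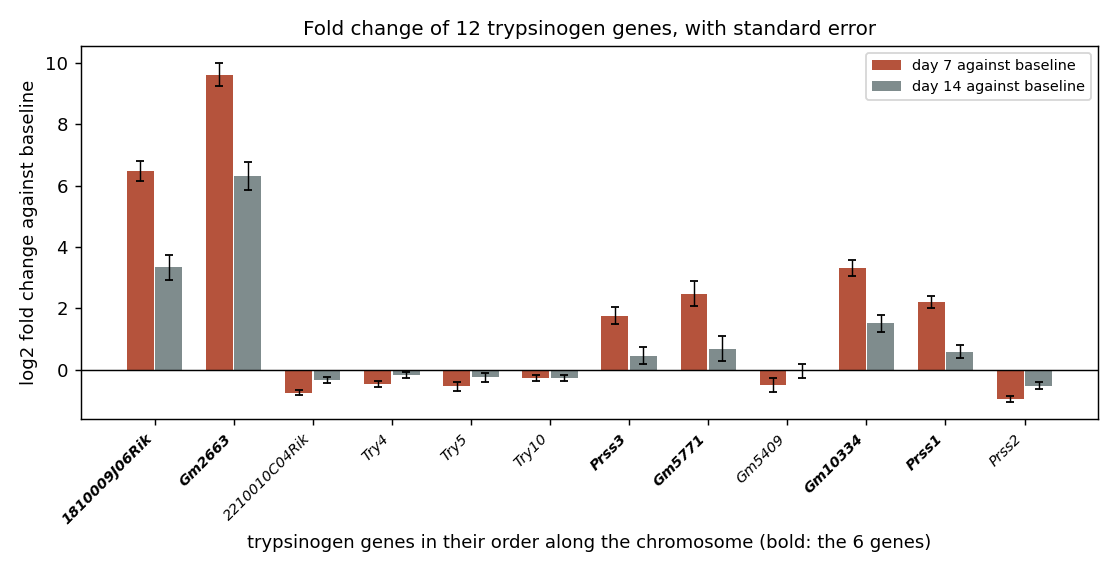
Log2 fold change against baseline (bars, with standard errors from the edgeR fit of 23 mice) of the 12 trypsinogens in their order along chromosome 6, for day 7 and day 14. The 6 genes in bold reach 1.77 to 9.61 at day 7, the other 6 lie between -0.94 and -0.26.

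The share of all trypsinogen counts that came from the 6 genes does not depend on the scaling. It was 0.157% at the lowest, 0.192% at the median and 0.597% at the highest of the baseline mice, 1.48%, 1.87% and 2.53% at day 7, and 0.389%, 0.417% and 0.873% at day 14. The highest baseline mouse was mouse 2 and the highest day 14 mouse was mouse 23, and the day 7 mice overlapped neither group. Group means were 0.253% ± 0.144 (SD, n = 8), 1.99% ± 0.355 (n = 8) and 0.481% ± 0.174 (n = 7). The 95% Wilson interval of the share, for counting error only, was 1.45% to 1.51% in mouse 14, the lowest at day 7.

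At day 14 the share was higher than at baseline by 0.228 percentage points (exact two-sided permutation test over 6435 splits of the mice, p = 0.00995), and 1.51 percentage points lower than at day 7 (exact permutation p = 0.000155, the smallest this design allows). Without mice 2 and 23 the means were 0.416% ± 0.0215 (n = 6) at day 14 and 0.204% ± 0.0425 (n = 7) at baseline, with a difference of 0.211 percentage points (exact permutation p = 0.000583, again the smallest possible). Among males the difference from baseline was 0.353 percentage points and among females 0.0865 (exact permutation p = 0.0286 for 4 against 4 males, the smallest possible, and 0.543 for 3 against 4 females). The female baseline group contains mouse 2, and the male day 14 group contains mouse 23. Each was the highest of its time point, so the gap between the sexes depends on these mice. The low values at baseline and the high values at day 7 had chosen the genes, so each of these differences is read from a starting point that the choice favoured.

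**Figure D3:**
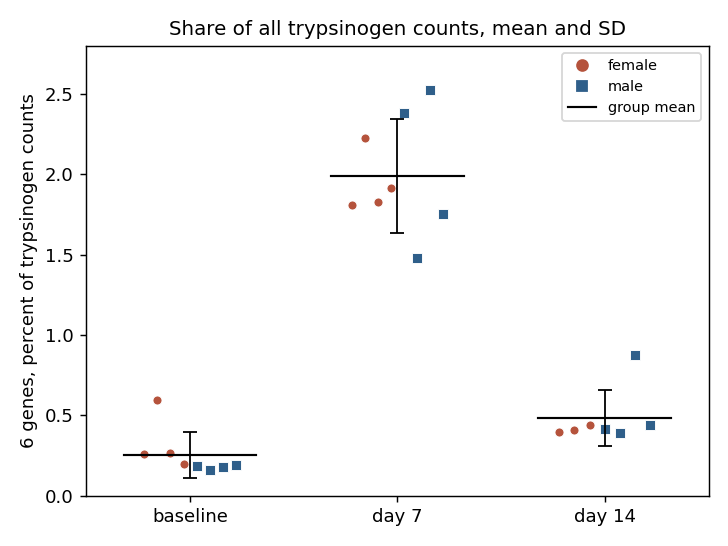
Percent of all trypsinogen counts that came from the 6 genes in each mouse, with group means and SD. The 8 day 7 mice lie between 1.48% and 2.53%, above all baseline and day 14 mice.

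The trypsinogens together took 11.02% ± 0.632 of all counts at baseline, 9.38% ± 0.887 at day 7 and 10.2% ± 0.392 at day 14 (SD, n = 8, 8 and 7). The 6 genes were therefore a small part of the trypsinogen RNA at every time, and in tissue RNA fewer cells of a type and less RNA per cell cannot be told apart. *Gm2663* and *1810009J06Rik*, whose counts are best taken as a sum, made up 0.000997% ± 0.000457 of trypsinogen counts at baseline, 0.364% ± 0.11 at day 7 and 0.029% ± 0.00796 at day 14. The 4 others made up 0.252% ± 0.144, 1.63% ± 0.364 and 0.452% ± 0.177.

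The choice had not used day 14, although both of its comparisons reuse mice on which the genes were chosen. All 6 genes were fitted above baseline, and 3 of them, *Gm2663*, *1810009J06Rik* and *Gm10334*, were called higher, against 0.697% of all genes called higher (0.787% in either direction). The estimate for *Gm2663* was 6.30 on the log2 scale with a standard error of 0.456 (edgeR adjusted p = 1.66e-07), the largest of all 12195 genes. *1810009J06Rik* had an estimate of 3.34 ± 0.405 (adjusted p = 0.000115), and *Gm10334* had 1.53 ± 0.274 (adjusted p = 0.00456). In each of these 3 genes all 7 day 14 mice stood above all 8 baseline mice. The share of all genes separated in this way is not given, and low baseline counts had chosen the genes.

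*Gm5771*, *Prss1* and *Prss3* were not called at day 14, with log2 fold changes of 0.70 ± 0.42, 0.60 ± 0.219 and 0.47 ± 0.28 and edgeR adjusted p-values of 0.515, 0.212 and 0.512. For *Gm5771* single mice decided the value. The log2 fold change was 1.07 without mouse 2 (adjusted p = 0.162), 0.26 without mouse 23 (adjusted p = 0.825) and 0.63 without both (adjusted p = 0.251). With total count scaling *Prss1* passed the test (log2 fold change 0.79, edgeR adjusted p = 0.0214).

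Between day 7 and day 14 all 6 genes fell and were called lower, where 0.172% of all genes were called lower (21 of 12195). *Gm2663* fell by 3.31 on the log2 scale and *1810009J06Rik* by 3.13 (standard errors 0.225 and 0.248; edgeR adjusted p = 5.87e-08 and 4.37e-07). *Gm10334* fell by 1.79, *Gm5771* by 1.78, *Prss1* by 1.61 and *Prss3* by 1.30 (adjusted p = 0.000167, 0.0324, 0.000196 and 0.0237). The calls of *Gm5771* and *Prss3* were close to the threshold. Leaving out any of the day 7 mice 13 and 14 or the day 14 mice 19 and 21 ended the call of *Gm5771*, and leaving out mouse 15, 17, 18, 22 or 24 ended both calls, with adjusted p between 0.0501 and 0.0841 in edgeR. DESeq2 called all 6.

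Expressed as the part of the day 7 increase in CPM that was left at day 14, *Gm2663* kept 9.69% ± 2.69 and *1810009J06Rik* 10.03% ± 2.75 (SD, n = 7). The range over mice was 7.71% to 15.5% for the first and 7.71% to 15.9% for the second, and mouse 21 was the highest for both. For the 4 other genes the mean was set by mouse 23, which kept 78.6% of the increase of *Gm5771*, 62.6% of that of *Prss3*, 62.5% of that of *Prss1* and 49.2% of that of *Gm10334*. In the 6 remaining mice the means were 3.94%, 7.34%, 7.90% and 17.01% for these genes. Mouse 2 raised the baseline of 2 of them. Without it as well, the means were 8.53% for *Gm5771*, 13.8% for *Prss3*, 8.11% for *Prss1* and 17.96% for *Gm10334*.

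The make-up of the members' own counts also differed between the time points after injury. *Prss3* contributed 70.9% ± 2.44 of the counts of the 6 genes at baseline, 48.2% ± 1.42 at day 7 and 63.3% ± 4.43 at day 14 (SD, n = 8, 8 and 7). From day 7 to day 14 its part rose by 15.1 percentage points, and the ranges of 45.6% to 49.6% and 56.2% to 67.9% did not overlap (exact permutation p adjusted over the 6 genes = 0.000932). The part of *Gm2663* fell by 8.37 percentage points, from 12.7% ± 4.06 to 4.32% ± 1.72, and that of *1810009J06Rik* fell by 3.64, from 5.89% ± 2.06 to 2.25% ± 0.809 (exact permutation, adjusted p = 0.00311 for both). The parts add up to a fixed whole, so a lower part of some genes is a higher part of others. The choice had used the day 7 counts of these genes, so the tests of their parts start from values that it favoured.

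The parts of the 3 remaining genes differed by less than their spread allowed a call. *Gm5771* contributed 25.1% ± 4.22 at day 7 and 21.95% ± 5.13 at day 14 (exact permutation, adjusted p = 0.304), and without mouse 23 the difference was -5.05 percentage points (adjusted p = 0.030). *Gm10334* contributed 3.00% ± 0.33 and 2.89% ± 0.418 (exact permutation, adjusted p = 0.708), against 1.58% ± 0.232 at baseline. *Prss1* contributed 5.11% ± 1.49 and 5.32% ± 0.54 (exact permutation, adjusted p = 0.765).

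**Figure D4:**
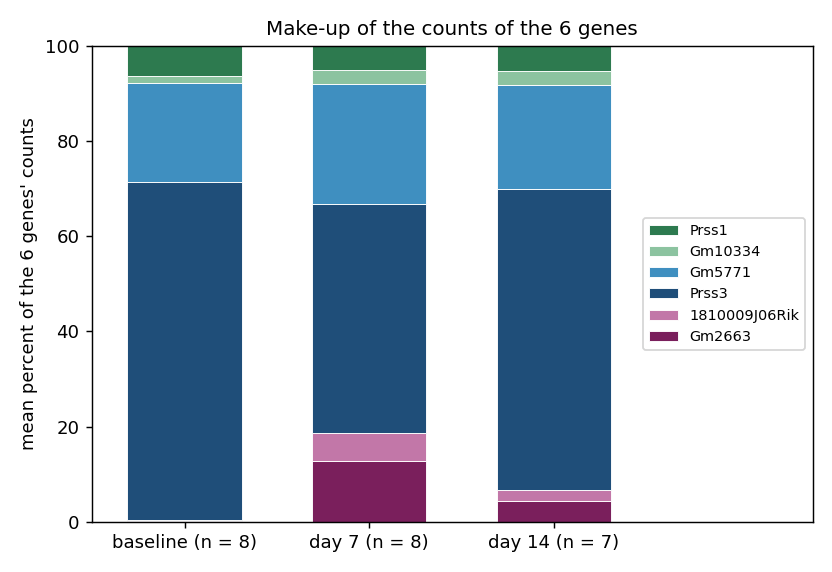
Mean percent of the counts of the 6 genes that each gene contributed, by group. *Prss3* takes 70.9% at baseline, 48.2% at day 7 and 63.3% at day 14, and *Gm2663* with *1810009J06Rik* appear at day 7.

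The genes did not all vary together from mouse to mouse. After the mean of each group of sex and time point was taken off the log2 CPM, *Gm2663* and *1810009J06Rik* had a Pearson r of 0.88 (Spearman rho 0.77) over the 15 post-injury mice. The 6 pairs among *Prss3*, *Gm5771*, *Gm10334* and *Prss1* had r between 0.71 and 0.93 (rho 0.73 to 0.90). The 8 pairs across these sets had r between -0.27 and 0.54 (rho -0.18 to 0.42). For each pair, r was also computed without the 2 mice farthest from the median of its first gene. It was then 0.75 in the first set, 0.70 to 0.90 in the second and -0.37 to 0.38 across.

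These sets were seen in the data, and the correlations are a description over mice that share scaling and, within pairs of near copies, sequence. Mouse 23 carried part of the pattern. Without it r was 0.91 for *Gm2663* and *1810009J06Rik*, 0.50 to 0.89 among the 4 others and -0.06 to 0.69 across. In the 8 day 7 mice alone the values were 0.94, 0.53 to 0.94 and -0.07 to 0.72. At baseline *Gm2663* and *1810009J06Rik* had too few counts for a relation to be seen (r = 0.02, n = 8), while pairs of the 4 others ranged from -0.10 to 0.98.

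**Figure D5:**
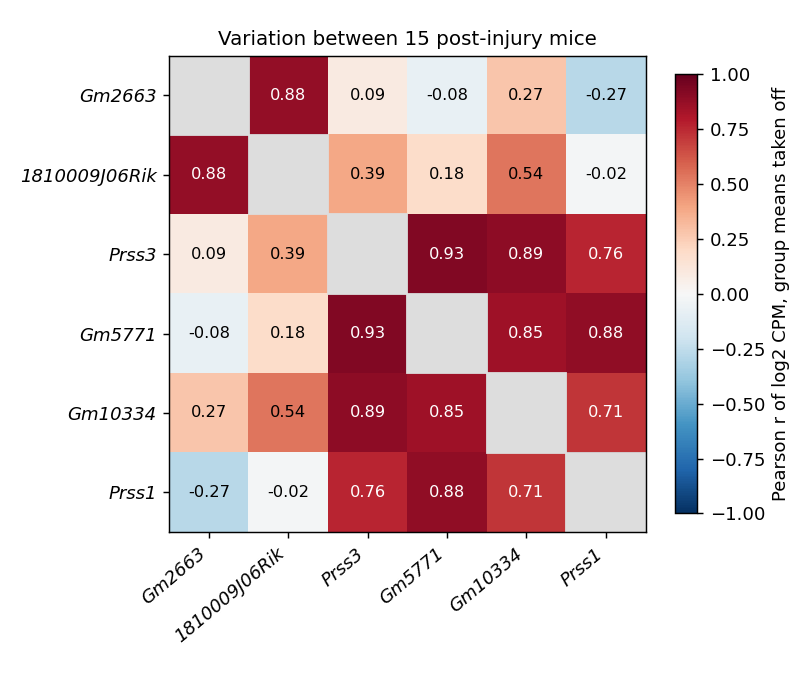
Pearson r between the 6 genes over 15 post-injury mice, from log2 CPM after the mean of each group of sex and time point was taken off. Values within *Gm2663* and *1810009J06Rik* (0.88) and within the other 4 genes (0.71 to 0.93) exceed those across (-0.27 to 0.54).

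The mice behind this pattern can be named. Mouse 13 and mouse 15, both males at day 7, were the highest for *Prss3* (1092 and 1050 CPM), *Gm5771* (664 and 636), *Gm10334* (74.1 and 70.8) and *Prss1* (117 and 118), while their *Gm2663* levels (177 and 153 CPM) stood below those of all 4 females. Mouse 23 at day 14 had 573 CPM of *Prss3* against at most 298 in the 6 other day 14 mice, but 15.8 CPM of *Gm2663*, inside the range of the group. Its summed level of 11 acinar markers was 313897 CPM, the highest of the 7, and its summed islet markers were the lowest at 429 CPM. Mouse 15 ranked 6th of 8 for acinar and 1st for islet and macrophage markers at day 7, and mouse 13 ranked 3rd, 4th and 5th. Mouse 2 ranked 6th of 8 for acinar and 2nd for islet markers at baseline. The part of cell make-up in these levels was not tested.

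No difference between the sexes was called for any of the 6 genes at day 7 (edgeR, where 0.0619% of all genes were called), although *Gm2663* and *Prss1* had an unadjusted p under 0.05. *Gm2663* was at 213, 219 and 298 CPM (lowest, median and highest) in the 4 females and at 85.9, 165 and 225 CPM in the 4 males. Its log2 fold change of males against females was -0.56 ± 0.242 (adjusted p = 0.716), and that of *1810009J06Rik* was -0.55 ± 0.266 (adjusted p = 0.792). The 4 other genes had values from 0.22 to 0.58 (adjusted p from 0.745 to 0.988), and the sexes overlapped in all 6 genes. The interaction of sex with day 7 against baseline was called for none of them (0.00773% of all genes called), with *Prss3* and *Gm5771* at an unadjusted p under 0.05. It was largest for *Gm5771* at 1.61 ± 0.655 (adjusted p = 0.909), and the baseline females include mouse 2. At baseline, log2 fold changes of males against females were -0.78 ± 0.338 for *Prss3* and -1.03 ± 0.478 for *Gm5771* (edgeR adjusted p = 0.783 and 0.803). Those of the 4 other genes ran from -0.39 to 0.35. In the interaction with day 14 against baseline, *Gm5771* was again the largest at 1.99 ± 0.696, and the other genes ran from -0.07 to 1.13. None of these was called.

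Sequence before the RefSeq start was compared for the 5 genes that have an entry in the RefSeq promoter table (GRCm38.p6). It is shown for a pair of near copies that varied together and for *Gm2663*, each as the 250 bases before the RefSeq start. Capitals mark the TATA box motif TATAAA, the E-box CACCTG and the motif TGGGAA, or their reverse complements.
Gm5771 (chr6:41392106-41392355, plus strand): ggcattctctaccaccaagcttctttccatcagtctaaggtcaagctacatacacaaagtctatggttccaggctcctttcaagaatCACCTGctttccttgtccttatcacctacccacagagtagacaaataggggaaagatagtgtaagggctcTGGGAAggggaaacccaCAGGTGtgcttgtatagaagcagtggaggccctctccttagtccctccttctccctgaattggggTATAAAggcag
Prss1 (chr6:41458680-41458929, plus strand): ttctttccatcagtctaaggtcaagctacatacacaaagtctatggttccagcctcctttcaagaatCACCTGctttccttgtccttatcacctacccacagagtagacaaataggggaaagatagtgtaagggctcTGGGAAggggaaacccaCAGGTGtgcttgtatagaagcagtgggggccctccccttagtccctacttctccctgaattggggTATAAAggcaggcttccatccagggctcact
Gm2663 (chr6:40999480-40999729, minus strand): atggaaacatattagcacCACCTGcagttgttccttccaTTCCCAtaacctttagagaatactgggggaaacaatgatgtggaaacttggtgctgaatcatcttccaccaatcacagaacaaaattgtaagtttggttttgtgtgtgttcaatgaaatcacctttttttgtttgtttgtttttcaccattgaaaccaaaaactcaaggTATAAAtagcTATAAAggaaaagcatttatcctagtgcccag
*Gm5771* and *Prss1* differed at 4 of 230 bases once shifted by 20, and *Prss3* and *Gm10334* at 7 of 233 once shifted by 17. *Gm2663* was 45.1% to 47.2% identical to the 4 others in gapped alignments and 52.1% identical to the abundant gene *2210010C04Rik*. TATAAA occurred in 5 of 5 of the genes and in 3 of 3 other trypsinogens (*Prss2*, *2210010C04Rik* and *Try4*), against 12.4% of all 32851 promoters. For *Prss3* and *Gm10334* the GENCODE gene begins earlier, so that 65 and 48 of these 250 bases, with the TATAAA match of each, lie inside the annotated gene. CACCTG, a form of the E-box CANNTG that acinar factors such as PTF1A can bind, also occurred in 5 of 5 and 3 of 3, against 17.2%, and CANNTG itself in 66.2% of all promoters.

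TGGGAA, the core bound by RBPJ and its acinar relative RBPJL, occurred in *Gm2663*, *Gm5771* and *Prss1* and in 2 of the 3 others, against 21.6% of all promoters. AAGGTCA, the core of NR5A2 sites, occurred in *Gm5771* and *Prss1* and in 0 of the 3 others, against 4.08%. The letters TGACGTCA, TGACTCA, TTGCGTCA and ATTGCATCA were in none of the 8 windows, and 1.55%, 4.46%, 0.438% and 0.167% of all promoters held them. These are matches of letters on either strand, not measured binding.

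Genes of trypsinogen control were taken as a list of 24, of which 23 were in the files and 14 were tested. The list held activators, degraders and inhibitors, but also receptors and other genes that do not themselves act on trypsinogen. At day 7, 1 of 14 was called higher and 3 lower, where 3.82% of all genes were called higher and 1.31% lower, and the median log2 fold change was -0.01, against 0.02 over all genes. *Pi15*, which encodes a peptidase inhibitor, rose by 1.26 ± 0.178 (edgeR adjusted p = 1.62e-05), from 2.85 ± 0.888 to 6.91 ± 1.91 CPM. The 3 called lower are proteases of the chymotrypsin family, made by the same acinar cells. *Ctrl* fell by 0.74, *Ctrb1* by 0.70 and *Ctrc* by 0.67 on the log2 scale (adjusted p = 3.82e-06, 4.23e-06 and 3.45e-05). Short of the fold change threshold, *Cela2a* fell by 0.56, and *Ctsd* and *Lamp2* rose by 0.15 and 0.17 (edgeR adjusted p = 4.35e-05, 0.028 and 0.0238).

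*Spink1*, the trypsin inhibitor of acinar granules, was at 1237 ± 144 CPM at baseline and 1160 ± 196 at day 7 (log2 fold change -0.10, edgeR adjusted p = 0.457). *Ctsb*, which encodes cathepsin B, was at 129 ± 7.55 and 134 ± 10.8 CPM (log2 fold change 0.05, adjusted p = 0.501). *Tmprss15*, which encodes enteropeptidase, had 7 counts in all, in 4 of the 23 mice. At day 14 none of the 14 genes was called against baseline by edgeR or DESeq2 and none against day 7 (0.377% of all genes called in either direction), with 7 and 6 at an unadjusted p under 0.05 in edgeR. Under the fold change threshold, *Cela2a* and *Ctrb1* were below baseline by 0.48 and 0.40 on the log2 scale (edgeR adjusted p = 0.00304 and 0.0213). *Ctrl* and *Ctrc* were above day 7 by 0.46 and 0.43 (adjusted p = 0.0119 and 0.0297), also under it.

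The tissue was acinar by its markers at every time. The 11 acinar markers summed to between 289299 and 417104 CPM at baseline, 164808 and 255430 at day 7 and 266978 and 313897 at day 14, and 4 of 11 were called lower at day 7 (1.31% of all genes called lower). Markers of other cells were called higher at day 7: 8 of 10 for macrophages, 8 of 9 for fibroblasts, 4 of 7 for islets, 2 of 7 for ducts and 2 of 5 for proliferation (3.82% of all genes called higher and 5.13% in either direction). Macrophage markers summed to 56.8 to 212 CPM at baseline and 135 to 313 at day 7, fibroblast markers to 341 to 680 and 653 to 1222. None of 6 endothelial, 5 lymphocyte, 4 fat and 1 intestinal markers tested was called by edgeR or DESeq2, with 4 endothelial markers and no other at an unadjusted p under 0.05. The endothelial markers had a median log2 fold change of -0.33 and a lowest of -0.52. Their smallest edgeR adjusted p was 0.00084, so the fold change threshold kept such markers from a call.

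At day 14, 4 of 9 fibroblast markers were still called higher than at baseline by both tools, and 0 of the 56 others by either tool, 14 of these at an unadjusted p under 0.05 (0.697% of all genes called higher and 0.787% in either direction). Between day 7 and day 14 edgeR called 1 of these 56, an endothelial marker that was higher at day 14, and DESeq2 called 3, with 20 at an unadjusted p under 0.05 in edgeR (0.377% of all genes called). The 11 acinar markers, none of them called, had a median log2 fold change of -0.27 against baseline (smallest edgeR adjusted p = 0.0213). Against day 7 their median was 0.30 (smallest adjusted p = 0.000357). Summed over the 8 intestinal markers in the files, baseline mice had 1.38 to 4.93 CPM, day 7 mice 1.72 to 5.92 CPM and day 14 mice 1.29 to 5.21 CPM. The part of the other cell types in the levels of the 6 genes was not tested.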

How the data were processed

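The deposited values were counts, which the authors made from total RNA depleted of ribosomal RNA and sequenced as stranded paired reads. They trimmed the reads with Trim Galore and cutadapt, aligned them to mm10 with STAR 2.5.2a and counted uniquely mapped fragments per gene with featureCounts. The annotation and strand setting are not given in the sources used here. Total counts were 7059890 to 9567446 per mouse, and 3 counts, the floor used for detection, cover counting error only.

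Rows were taken by gene symbol. The 6 genes, the lists and the tests were chosen with earlier results of these data known. The test was the quasi-likelihood test of edgeR 4.0.16 (R 4.3.3) after TMM scaling, in 1 fit of 23 mice with sex as covariate (12195 genes) and 1 fit in which each sex at each time was a group (12933 genes). P-values were two-sided and adjusted with the Benjamini-Hochberg method over all genes. Calls required a fold change of 1.5 or more and an adjusted p no higher than 0.05, and an interaction by its adjusted p alone. Standard errors restate the test, as the log2 fold change over the root of F. Shares were compared with exact two-sided permutation tests. Log2 CPM used a prior count of 2. The code was tested on simulated data.

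Named genes were all 6 genes, every other trypsinogen symbol, and the genes of trypsinogen control that passed the adjusted p threshold, called or not. Also named were *Tmprss15*, *Ctsb*, *Ctrc* and *Spink1*. The last were the 5 genes most correlated with the summed counts of the 6 genes, over 23 mice and over 15 post-injury mice. Alternatives were DESeq2 1.42.0, its size factors, total count scaling with and without trypsinogens, other filters, no covariate, only the mice compared, and each mouse left out. Leaving out mice 2 and 23 together, and mouse 5 from the pooled ratio of *Gm2663*, was chosen after seeing the data. Identity was computed with Biopython 1.88.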

Additional observations from a re-analysis of the deposited data

Results flagged for a closer look

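The levels of the 6 genes and their share were examined in each of the 3 groups, which gives 21 sets of values. In 10 of them 1 mouse lay farther from the rest than Dixon's 95% critical value allows. Chance gives about 1 in 20 for separate sets, but these sets share mice and the genes vary together, so they are not separate events. They fall on 3 mice. Mouse 23 was the highest at day 14 for *Prss3* at 573 CPM (the next mouse at 298), for *Gm5771* at 337 CPM (next 104), for *Gm10334* at 26.5 CPM (next 15.7), for *Prss1* at 56.9 CPM (next 24.8) and for the share of trypsinogen counts at 0.873% (next 0.442%). Mouse 2 was the highest at baseline for *Prss3* at 519 CPM (next 272), for *Gm5771* at 190 CPM (next 80.0) and for the share at 0.597% (next 0.268%). Mouse 21 was the highest at day 14 for *Gm2663* at 31.0 CPM (next 20.1) and for *1810009J06Rik* at 15.8 CPM (next 10.7).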

How the results depend on the processing

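The number of genes called at day 14 against baseline was 3, and 3 with each mouse left out. The requirement of 10 counts in every mouse left 4 genes to test and called 1, because *Gm2663* and *1810009J06Rik* have fewer counts at baseline. Total count scaling, with or without trypsinogens in the total, gave 4, adding *Prss1*. The number called lower between day 7 and day 14 was 6, and 4 to 6 with each mouse left out. It was 5 with no filter (*Gm5771* at an edgeR adjusted p of 0.0508) and 4 of the 4 tested with 10 counts in every mouse. Calls for sex and for its interaction stayed at 0 in every setting run. The share at day 14 exceeded baseline by 0.162 to 0.277 percentage points with 1 mouse left out, but by 0.0865 in females alone (exact permutation p = 0.543), and was below day 7 by a difference of -1.58 to -1.43. With 1 mouse left out, the change from day 7 to day 14 in percentage points of the members' own counts was -9.15 to -7.82 for *Gm2663*, -4.05 to -3.26 for *1810009J06Rik*, 14.3 to 16.3 for *Prss3*, -5.05 to -2.48 for *Gm5771* (called without mouse 23 only), -0.247 to -0.0503 for *Gm10334* and -0.0297 to 0.674 for *Prss1*, negative only without mouse 12, where the gene was not called either way. The cause was not tested. No paired analysis was possible because every mouse has a number of its own. Depth limits *Gm2663* and *1810009J06Rik* at baseline, where 3 counts are 3.38e-05% to 4.25e-05% of a library.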

Other observations

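The genes whose level over the 23 mice was most like the summed counts of the 6 genes were *Ifi27*, an interferon-inducible gene (Pearson r = 0.91), *Scarna2*, a small RNA of Cajal bodies (0.87), *Slc2a5*, a fructose transporter (0.81), *Hadhb*, a subunit of the mitochondrial trifunctional protein of fatty acid oxidation (0.81), and *Reg3g*, an antibacterial lectin (0.80). These values describe 12183 genes over mice that share a time course, and 1 gene passed 0.9. *Reg3g* was at 3.75 ± 3.15 CPM at baseline, 93.7 ± 46.1 at day 7 and 30.4 ± 64.0 at day 14 (SD, n = 8, 8 and 7). *Ifi27* was at 54.3 ± 8.75, 99.4 ± 10.3 and 61.03 ± 6.68 CPM. With Spearman's rho or with total count scaling 2 of these 5 genes were kept.

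Over the 15 post-injury mice, after the group means were taken off, the most similar genes were *Sdr9c7* (r = 0.87), *Ovca2* (0.87), *Insig2*, a regulator of sterol synthesis (0.84), *Bphl* (0.83) and *Dusp28* (0.80). None of the 5 had been called at day 7 or day 14, and their adjusted p-values in edgeR at day 7 ran from 0.139 to 0.667. Of these genes 2 were kept with Spearman's rho and 4 with total count scaling. Most of the summed counts came from *Prss3* and *Gm5771* (means of 48.2% and 25.1% at day 7, 63.3% and 21.95% at day 14). The likeness is therefore mainly to these genes, and values without mouse 23 are not given.

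The ratio of counts within pairs of near copies moved with time. *Gm2663* had 1.66 to 2.68 times the counts of *1810009J06Rik* in the day 7 mice (median 2.25) and 1.48 to 2.24 times in the day 14 mice (median 1.90), while at baseline the summed counts gave a ratio of 0.232. *Prss3* had 35.9 to 61.7 times the counts of *Gm10334* at baseline, 14.1 to 19.8 times at day 7 and 15.5 to 25.2 times at day 14. *Gm5771* had 1.86 to 10.5, 3.59 to 6.08 and 3.14 to 5.93 times the counts of *Prss1*, with overlap between all 3 groups. Lengths and the share of sequence found in no other gene are close within each pair. The split of uniquely mapped counts between near copies is still uncertain, so the ratios describe the counts and not the RNA.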
